A study of Mus musculus with 4 samples.

Results

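The 6 genes described here are the mouse genes for 4 chemokines that attract neutrophils, Cxcl1 (ENSMUSG00000029380), Cxcl2 (ENSMUSG00000058427), Cxcl3 (ENSMUSG00000029379) and Cxcl5 (ENSMUSG00000029371), their shared receptor Cxcr2 (ENSMUSG00000026180), and Ackr1 (ENSMUSG00000037872), an atypical receptor that binds chemokines without signalling. They were taken by symbol from the 31053 features of each count matrix, and all 6 were found. Droplet single-cell RNA sequencing of transcript 3′ ends had been done on whole blood and on punch biopsies of ear skin, which the labels describe as lesional for both antibodies; the mice were C57BL/6J, 6 to 8 weeks old. All mice had received 250 µg of IgG 3 times a week for 2 weeks. In the EBA groups this was affinity-purified IgG against the vWFA2 domain of collagen VII, the anchoring fibril protein, a passive transfer model of the blistering disease epidermolysis bullosa acquisita (EBA). In the IgG groups it was control rabbit IgG, so that injection of foreign antibody is common to all groups. Cells of 3 mice were pooled into 1 library per antibody and tissue, which leaves no replicates. Red cells of the blood were lysed and the skin was digested with enzymes, so that tissue and digestion cannot be told apart.

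CXC chemokines of this group carry a Glu-Leu-Arg motif before their first cysteines, and they bring neutrophils out of the blood by binding CXCR2, a G protein-coupled receptor. In skin they are known to be made on injury or cytokine stimulation by stromal, epithelial and myeloid cells, and activated neutrophils can themselves make some of them. ACKR1 on venular endothelium and red cells binds the same ligands and can carry them across the vessel wall or hold them back.

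The libraries held 5008 to 6770 barcodes and 22705634 to 90829463 unique molecular identifiers (UMIs, counts of single transcripts). After filtering, skin kept 5106 barcodes in IgG and 4134 in EBA, with median depths of 10648 and 9087.5 UMIs, and blood kept 4349 and 3325, with medians of 3743 and 5780 UMIs. Of all barcodes, 65 were shared by a pair of libraries, 37 of them among those kept. Cells were grouped by clustering that left these genes out, and classes were named "X-like" from marker genes. In EBA skin, 9 of 9 neutrophil markers were higher in the 879 neutrophil-like cells than in the rest, and IgG skin held 1 such cell. The largest classes of IgG skin were suprabasal and basal keratinocyte-like cells (1818 and 1540 cells, against 305 and 140 in EBA skin). Fibroblast-like cells numbered 716 in IgG and 820 in EBA skin, and macrophage-like cells 120 and 376. The small myeloid clusters 35 (with H2-Aa, Mmp19 and Cd74 among its leading genes) and 38 (led by Ccl24 and Chil3) stayed unnamed. The 126 monocyte-like cells, found in EBA skin only, rested on 5 detected markers, none of them among the leading genes of their main cluster (Chil3, F10, Plac8, Thbs1, Il1b), and their level of 8 neutrophil reference genes was 21.4% of that in neutrophil-like cells.

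Levels are given as CPM, the UMIs of a gene in the summed cells of a class relative to all UMIs of that sum, on the standard CPM scale. Intervals are exact 95% intervals and cover counting error only, neither the difference between mice nor that between library preparations, and no test between groups was possible. Ratios are given for genes that reached 10 UMIs in the pair of sums and 10 CPM in the larger level, called measured below. Among these, a ratio of at least 2 was called higher and one of at most 0.5 lower, if its interval excluded 1. Reads near the 3′ end are counted irrespective of transcript length, so levels are compared between classes and not between genes.

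The 4 ligand genes lie on the forward strand of 1 stretch of chromosome 5, within 146.6 kb (GRCm38, GENCODE release M21), in the order Cxcl5 (chr5:90759360-90761624), Cxcl3 (chr5:90786103-90789600), Cxcl1 (chr5:90891241-90893115) and Cxcl2 (chr5:90903871-90905938). Cxcr2 (chr1:74153989-74161246, forward strand) and Ackr1 (chr1:173331886-173333750, reverse strand) lie on chromosome 1. Because the coding sequences of Cxcl1, Cxcl2 and Cxcl3 resemble each other, the assignment of reads among them is uncertain. The last 100 bases before the earliest annotated start of these 3 genes are shown, because the longest word they share, marked in capitals, stands close to the start of each (RefSeq, GRCm38.p6, forward strand). It has the form of a recognition site of NF-kB, the transcription factor through which cytokines are known to induce these genes.
Cxcl3, chr5:90786001-90786100: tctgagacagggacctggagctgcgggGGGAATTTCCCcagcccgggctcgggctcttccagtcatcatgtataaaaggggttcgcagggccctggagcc
Cxcl1, chr5:90891141-90891240: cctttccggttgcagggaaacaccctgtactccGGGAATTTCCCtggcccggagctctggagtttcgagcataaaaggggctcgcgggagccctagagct
Cxcl2, chr5:90903771-90903870: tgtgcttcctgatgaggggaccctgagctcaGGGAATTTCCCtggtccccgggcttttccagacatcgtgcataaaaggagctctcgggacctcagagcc

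The shared word, GGGAATTTCCC (reverse complement GGGAAATTCCC), began 71 bases (Cxcl1), 97 bases (Cxcl2) and 73 bases (Cxcl3) before the RefSeq start. On either strand of the 250 bases before the start it was found in 14 of 32851 mouse promoters, 0.0426%. The word was picked because these 3 windows share it. The windows of Cxcr2 and Ackr1 did not hold it. The sequence table matched 5 of the 6 genes and Cxcl5 was not among them. A match describes letters only, not a bound site or a cause of any level given here.

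Over all kept skin cells, 5 of the 6 genes were called higher in EBA than in IgG skin, where 14.2% of 8193 measured genes were called higher. Cxcl3 stood at 5.90 CPM in IgG and 278 CPM in EBA skin, 47.1-fold (42.99 to 51.6). Cxcl5 was 20.2-fold higher (8.20 to 166 CPM), Cxcl2 15.7-fold (164 to 2581 CPM) and Cxcl1 2.85-fold (164 to 468 CPM). Cxcr2 was 5.63-fold higher (4.59 to 25.8 CPM), and Ackr1, at 8.41 and 10.99 CPM, was not called (1.31-fold, 1.18 to 1.45). These sums mix the levels within cells with the makeup of the libraries, in which neutrophil-like cells were 21.3% of EBA skin. Class by class, the 4 ligands fell into different cells: Cxcl1 and Cxcl5 were highest in stromal classes, Cxcl2 and Cxcl3 in myeloid ones.

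**Figure D1:**
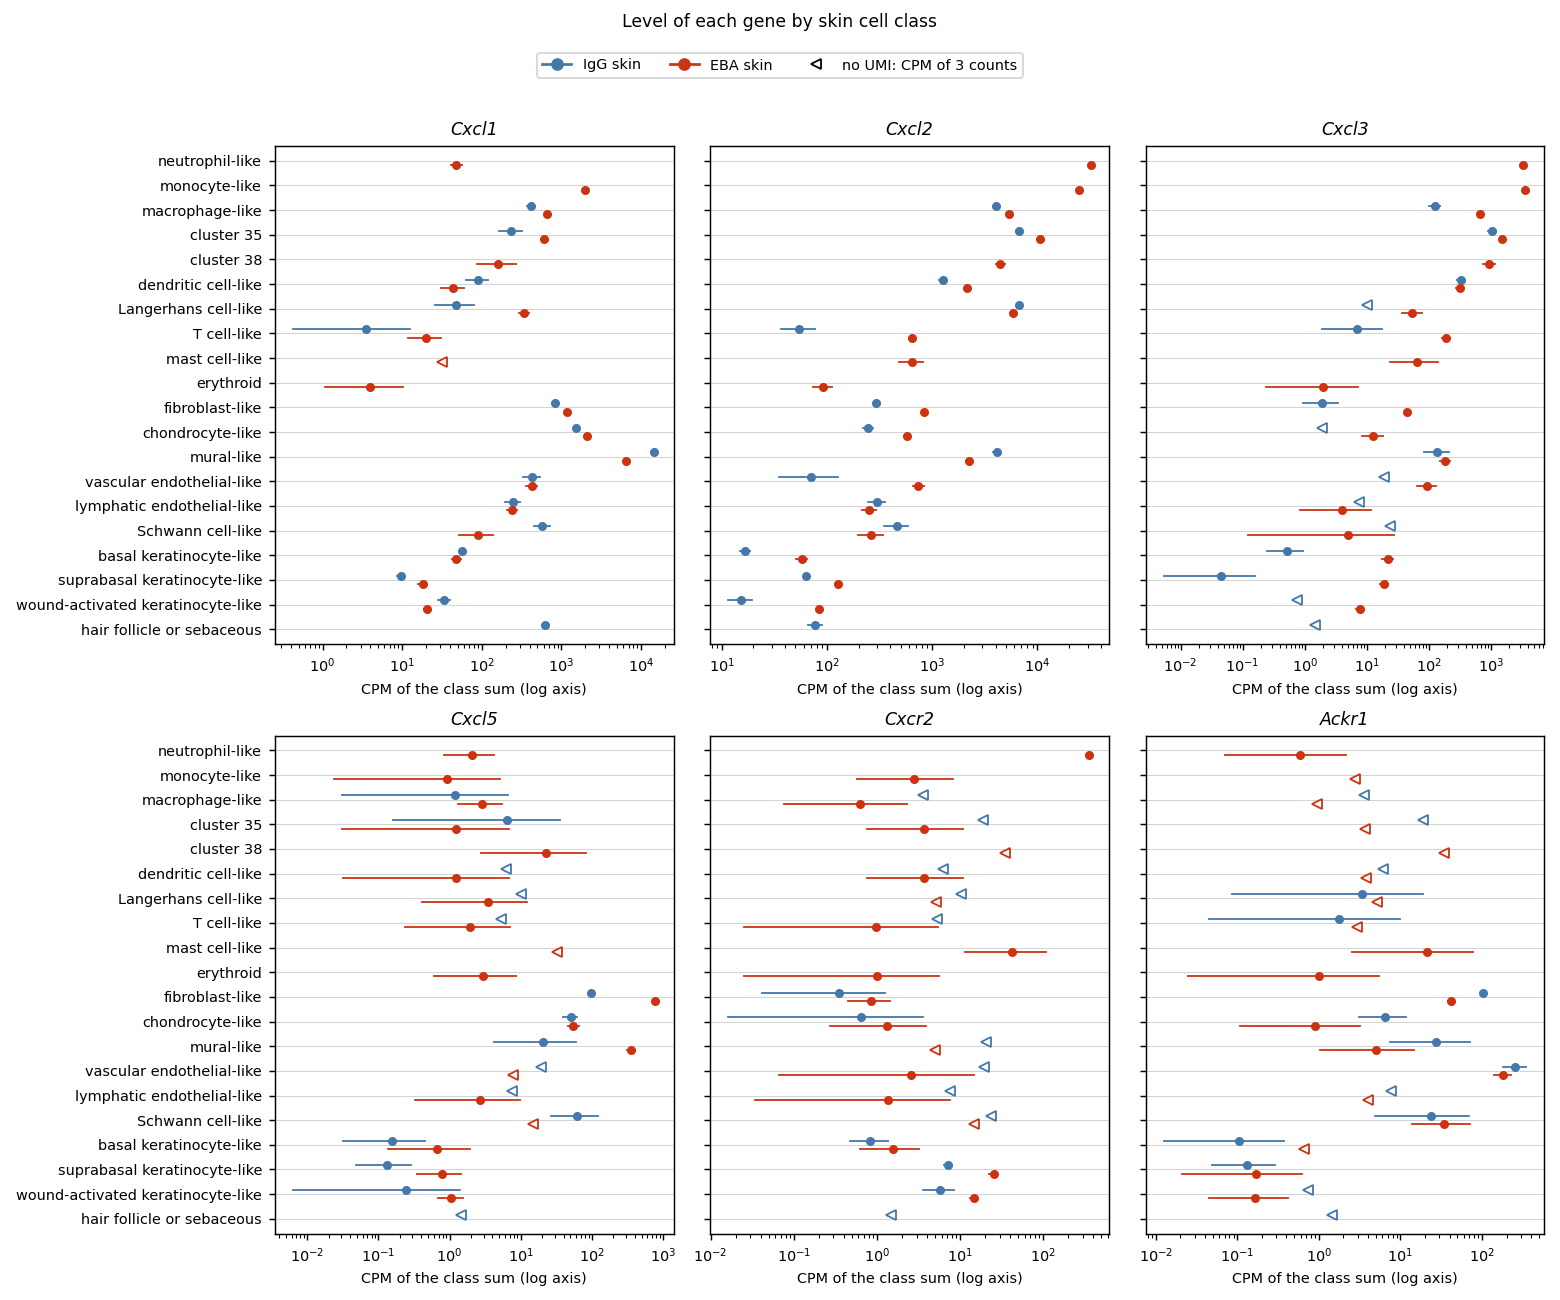
Level of each gene in CPM (log axis) in every skin class of 20 or more cells, IgG skin in blue and EBA skin in red, with exact 95% Poisson bars for counting error; open triangles mark classes with no UMI, drawn at the CPM of 3 counts. Mural-like cells are highest for Cxcl1 in both libraries, neutrophil- and monocyte-like cells of EBA skin for Cxcl2 and Cxcl3, fibroblast-like cells for Cxcl5, and vascular endothelial-like cells for Ackr1.

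Cxcl1, known in the mouse as KC, was highest in mural-like cells, the pericytes and smooth muscle of vessel walls, in both libraries. Their level was 14536 CPM in IgG skin (13922 to 15169.9, 25 cells) and 6561 CPM in EBA skin (6356 to 6770.0, 38 cells). Chondrocyte-like cells of the ear cartilage followed with 1527 and 2116 CPM. In EBA skin the next were monocyte-like cells with 1987 CPM and fibroblast-like cells with 1171 CPM, and in IgG skin fibroblast-like cells with 833 CPM and hair follicle- or sebaceous-like cells with 622 CPM. Macrophage-like cells held 418 CPM in IgG and 651 CPM in EBA skin. Vascular endothelial-like cells were nearly level, with 430.0 and 427 CPM.

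At the low end of Cxcl1 stood keratinocytes and some of the leukocytes, among them neutrophil-, T cell- and mast cell-like cells. Neutrophil-like cells of EBA skin held 48.0 CPM, with a UMI in 74 of 879 cells, level with basal keratinocyte-like cells at 48.1 CPM. Suprabasal keratinocyte-like cells held 9.58 CPM in IgG and 18.2 CPM in EBA skin, and T cell-like cells 3.50 and 19.7 CPM. Mast cell-like cells of EBA skin had no UMI among 41 cells, where 3 counts would be 31.9 CPM. In the order of classes, 7 of 14 neighbouring pairs in IgG skin and 11 of 18 in EBA skin had overlapping intervals, so the ranks in the lower part of the order are not resolved.

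By number of transcripts, fibroblast-like cells held more Cxcl1 than any other class. They held 35.9% of all Cxcl1 UMIs in IgG skin (35.1 to 36.7, of 13352) and 52.2% in EBA skin (51.7 to 52.8, of 34294), at 14.0% and 19.8% of the cells. Mural-like cells held 11.4% in EBA skin while being 0.919% of its cells, and chondrocyte-like cells 13.9%. All keratinocyte classes together, hair follicle- or sebaceous-like cells included, held 22.0% in IgG skin and 3.11% in EBA skin. Of this, hair follicle- or sebaceous-like cells held 9.56% (122 cells) and 0.405% (19 cells). A UMI was found in 571 of 820 EBA fibroblast-like cells, and the tenth of the cells with most UMIs held 55.8% of them. After thinning to 500 UMIs a cell, 29.3% of these cells and 60.5% of mural-like cells kept a Cxcl1 UMI.

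**Figure D2:**
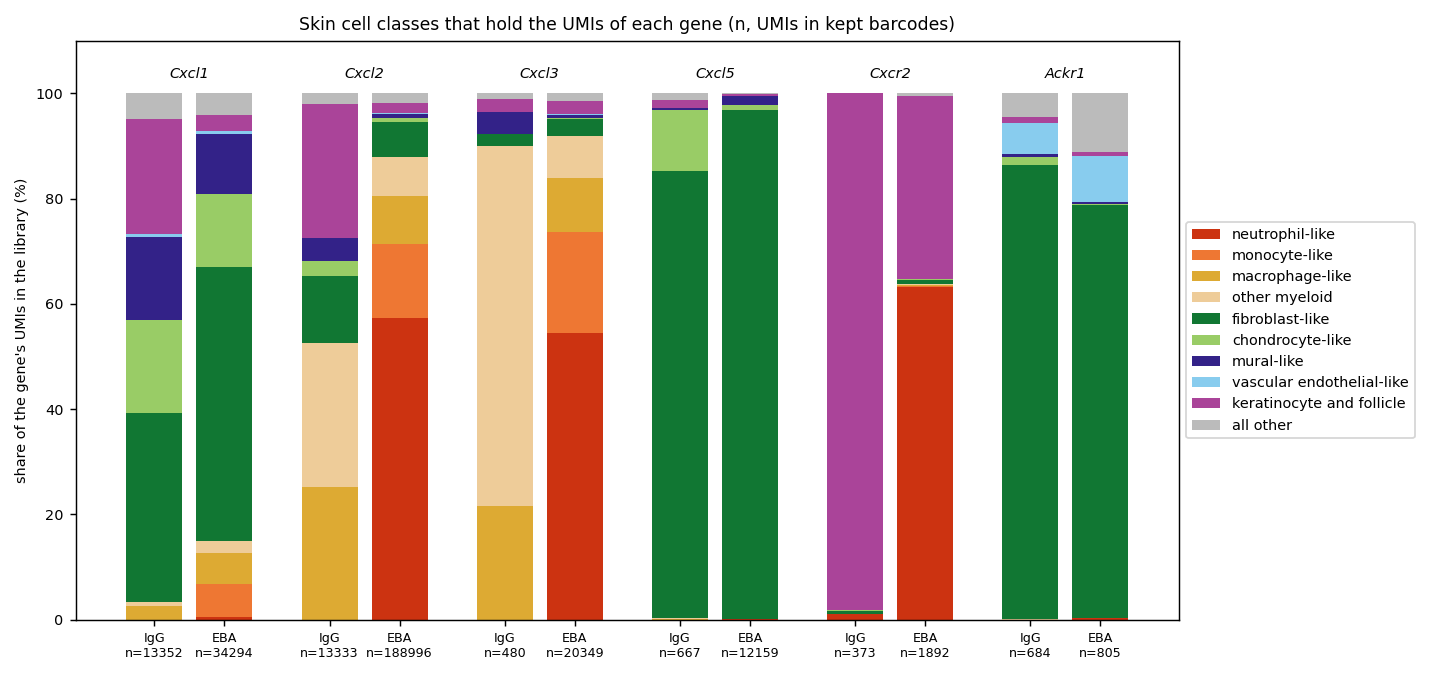
Share of all UMIs of each gene in a library (percent, stacked to 100) held by each skin class, IgG and EBA skin side by side. Fibroblast-like cells hold 96.6% of Cxcl5 and 52.2% of Cxcl1 in EBA skin, neutrophil-like cells 57.4% of Cxcl2 and 63.3% of Cxcr2, and keratinocyte classes 98.1% of Cxcr2 in IgG skin.

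Cxcl2, known as MIP-2, was highest in neutrophil-like cells of EBA skin at 31949.7 CPM (31759.8 to 32140.5), from 108403 UMIs. A Cxcl2 UMI was seen in 870 of the 879 cells. Their median was 211 UMIs per 10000, with a maximum of 1881, and 9 cells had none. The tenth of the cells with most UMIs held 39.7%, so Cxcl2 was spread over nearly all neutrophil-like cells rather than kept to a few.

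Monocyte-like cells of EBA skin came next with 24678 CPM, and their median of 213 UMIs per 10000 was close to that of neutrophil-like cells. Cluster 35 held 10470.4 CPM, Langerhans cell-like cells 5859 CPM and macrophage-like cells 5367 CPM. Fibroblast-like cells stood at 841 CPM and the keratinocyte classes between 57.4 and 126 CPM. In IgG skin, where neutrophil-like cells were nearly absent, Langerhans cell-like cells (6695 CPM, 6402 to 6997) and cluster 35 (6686 CPM, 6289 to 7102) overlapped at the top. Mural-like cells at 4082 CPM and macrophage-like cells at 4033 CPM followed and overlapped as well.

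Neutrophil-like cells held 57.4% of all Cxcl2 UMIs in EBA skin (57.1 to 57.6, of 188996), monocyte-like cells 14.1% and macrophage-like cells 8.99%. In IgG skin the total was 13333 UMIs, and macrophage-like cells held 25.1%, suprabasal keratinocyte-like cells 21.4% and Langerhans cell-like cells 14.8%. The keratinocyte share came from low levels, 63.0 CPM in suprabasal cells, multiplied over the largest class. Free RNA from broken neutrophils could carry Cxcl2 into other droplets, so each class was set against its level of 8 neutrophil reference genes. If all reference UMIs were free neutrophil RNA, the Cxcl2 observed would be 17.2 times what they bring in mural-like cells, 8.995 times in chondrocyte-like, 4.15 times in fibroblast-like, 3.61 times in monocyte-like and 3.05 times in macrophage-like cells. It would be 0.991 times in Langerhans cell-like, 0.892 in wound-activated and 0.625 in basal keratinocyte-like, 0.649 in Schwann cell-like and 0.433 in mast cell-like cells. That condition need not hold. Langerhans cell-like cells also held the reference genes in IgG skin (4709 CPM, against 3624 CPM in EBA skin), where 1 neutrophil-like cell was found. A second limit took free RNA to have the makeup of the whole library, and used fibroblast or keratinocyte markers. It was 0.792% of the UMIs in Langerhans cell-like, 0.809% in wound-activated, 0.408% in basal keratinocyte-like and 1.42% in mast cell-like cells of EBA skin. In Schwann cell-like cells it was 3.17%. These markers cannot bound RNA that comes from neutrophils alone, and the part of free RNA in the Cxcl2 values was not tested.

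Cxcl3 was the most restricted of the 4 to myeloid cells. In EBA skin it stood at 3625 CPM in monocyte-like cells (3513 to 3741) and at 3268 CPM in neutrophil-like cells (3207 to 3329), followed by cluster 35 with 1513 CPM, cluster 38 with 928 CPM and macrophage-like cells with 659 CPM. In IgG skin the library held 480 Cxcl3 UMIs in all, 432 of them (90.0%, 86.96 to 92.5) in myeloid classes other than neutrophil-like cells. Cluster 35 held 1058 CPM there, dendritic cell-like cells 332 CPM, mural-like cells 138 CPM and macrophage-like cells 125 CPM. Fibroblast-like cells held 1.91 CPM from 11 UMIs, 10 of them in 1 cell, and 7 of 15 classes had none.

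Neutrophil-like cells held 54.5% of Cxcl3 UMIs in EBA skin (53.8 to 55.2, of 20349), monocyte-like cells 19.2% and macrophage-like cells 10.3%. Within macrophage-like cells the level differed by cluster. Cluster 36, led by Arg1, Gpnmb and Mmp12, held 2158 CPM of Cxcl3 in 76 cells of EBA skin, and cluster 14, led by C1qa, C1qb and Pf4, held 167 CPM in 300 cells. Cxcl2 differed in the same order, with 9004 CPM in cluster 36 and 4171 CPM in cluster 14. Cluster 36 had 1 cell in IgG skin.

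Cxcl5, a ligand known to be made by epithelial and stromal cells and stored in platelets, was almost wholly in fibroblast-like cells. They held 768 CPM in EBA skin (755 to 782) and 98.3 CPM in IgG skin (90.4 to 107), and 96.6% of all Cxcl5 UMIs in EBA skin (96.3 to 96.96) against 84.9% in IgG skin (81.9 to 87.5). It was uneven among these cells: 263 of 820 EBA cells had a UMI, and the tenth of the cells with most held 82.9% of the UMIs. In IgG skin 37 of 716 cells had one. Fibroblast-like cells had median depths of 5895.5 UMIs in IgG and 16596.5 UMIs in EBA skin, so these unthinned counts of cells cannot be compared directly.

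Outside fibroblast-like cells, Cxcl5 values rested on few cells. Mural-like cells of EBA skin held 356 CPM, but from 5 of 38 cells, 151 of the 211 UMIs being in 1 cell. Of the 78 UMIs in IgG chondrocyte-like cells, 71 were in 1 cell. No UMI was found in the vascular endothelial-like cells of EBA skin, where 3 counts would be 7.81 CPM, and keratinocyte classes held 1.06 CPM or less in both libraries. In blood, platelet-like cells held 52.2 CPM in IgG (6 UMIs) and 110 CPM in EBA (24 UMIs).

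The fibroblast-like cells formed 2 clusters, in which the ligands stood at different levels although none of them was used for clustering. Cluster 7 was led by Pi16, Clec3b, Cxcl12 and Mfap5 (288 IgG and 372 EBA cells) and cluster 5 by Coch, Crabp1, Tnn and Lrrc15 (428 and 448 cells). In EBA skin the level in cluster 7 was 2.42 times that in cluster 5 for Cxcl1 (1741 and 719 CPM), 2.59 times for Cxcl2, 2.62 times for Cxcl3, 1.74 times for Cxcl5 (1008 and 579 CPM) and 4.24 times for Ackr1. In IgG skin the ratios were 3.49 for Cxcl1, 2.97 for Cxcl2, 3.40 for Cxcl5 and 3.28 for Ackr1. Cluster 7 was thus the higher of the pair for each ligand measured in both libraries. Within single EBA cells thinned to 500 UMIs, 41.7% of the 240 fibroblast-like cells with Cxcl1 also kept Cxcl2, against 8.45% of those without, and 50 kept both Cxcl1 and Cxcl5.

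**Figure D3:**
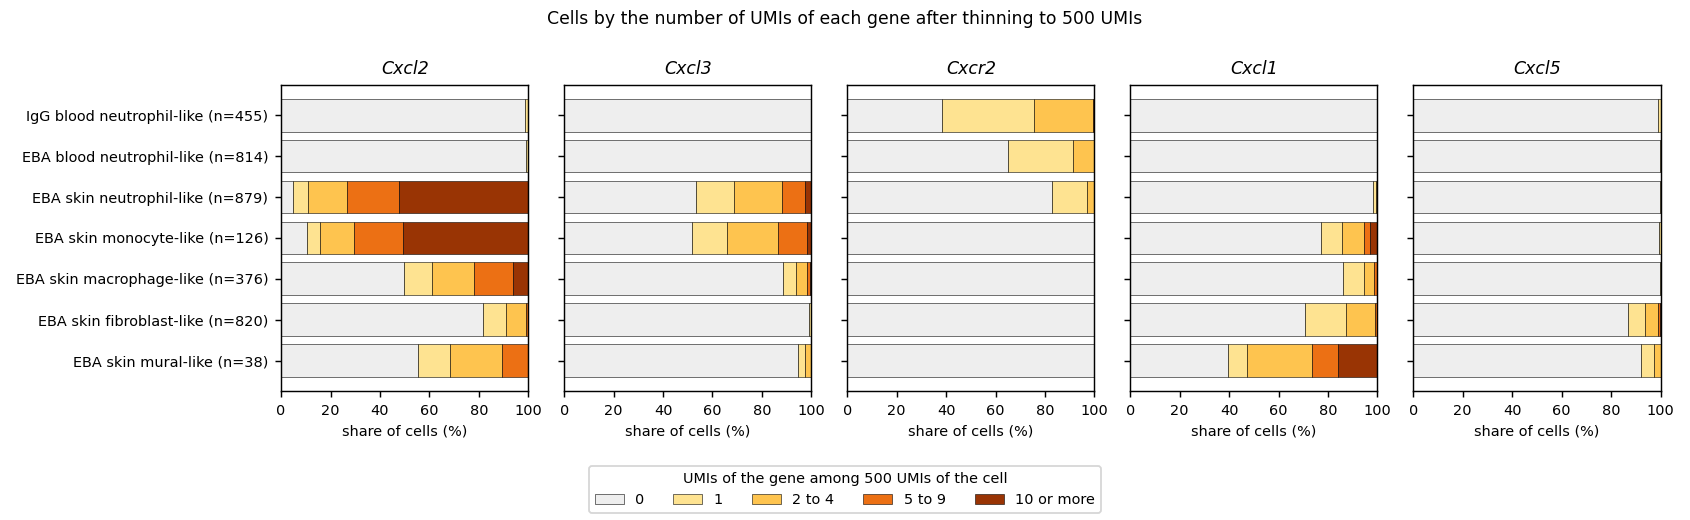
Share of cells (percent) with 0, 1, 2 to 4, 5 to 9 and 10 or more UMIs of a gene after each cell was thinned to 500 UMIs, for Cxcl2, Cxcl3, Cxcr2, Cxcl1 and Cxcl5 in 7 groups of cells. In neutrophil-like cells of EBA skin 52.2% of cells hold 10 or more Cxcl2 UMIs, while 98.5% of those of IgG blood and 99.3% of those of EBA blood hold none.

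Cxcr2, the receptor, had its highest skin level in neutrophil-like cells of EBA skin at 353 CPM (333 to 373), with a UMI in 446 of 879 cells. The next levels resting on more than 1 cell were in suprabasal keratinocyte-like cells at 25.2 CPM (22.4 to 28.3) and wound-activated keratinocyte-like cells at 14.6 CPM (13.1 to 16.2). Mast cell-like cells had 4 UMIs, all in 1 cell. Fibroblast-like cells held 0.850 CPM, macrophage-like 0.632 CPM and monocyte-like cells 2.78 CPM, and 4 classes had none. Neutrophil-like cells were thus the class of EBA skin at the top for both a ligand, Cxcl2, and the receptor.

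Thinned to 500 UMIs, 94.99% of neutrophil-like cells of EBA skin kept a Cxcl2 UMI (835 cells), 46.5% a Cxcl3 UMI (409 cells) and 17.3% a Cxcr2 UMI (152 cells, 50.7% before thinning). Cxcl2 and Cxcr2 were found together in 141 cells, 16.9% of those with Cxcl2, against 25% of the 44 cells without it. Cxcl2 and Cxcl3 were found together in 405 cells. Fibroblast-like cells of the same library, in which the gene was near background, kept a Cxcr2 UMI in 0 of 820 cells. At the depth of 500 UMIs this allows a share of up to 0.366%, and before thinning these cells held 13 Cxcr2 UMIs.

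In IgG skin, nearly without neutrophil-like cells, the Cxcr2 transcripts lay in keratinocytes. There, 366 of 373 Cxcr2 UMIs (98.1%, 96.2 to 99.2) were in keratinocyte classes, 87.7% in suprabasal cells, where the level was 7.23 CPM (6.47 to 8.06) and 229 of 1818 cells had a UMI. Wound-activated keratinocyte-like cells held 5.69 CPM, basal ones 0.827 CPM, and 10 of 15 classes had no UMI. In EBA skin, neutrophil-like cells held 63.3% of 1892 UMIs and keratinocyte classes 34.8%.

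The keratinocyte level differed among suprabasal clusters 11, 3 and 6 in the same order in both libraries. The remaining suprabasal cluster 31, led by Lce1b and Lce1g (47 IgG and 27 EBA cells), is not part of this order. Cluster 11, led by Ereg, Wfdc21, Slurp1, Klk7 and Cdsn, held 13.5 CPM in IgG and 37.3 CPM in EBA skin, cluster 3 held 4.64 and 21.7 CPM, and cluster 6 held 0.867 and 9.73 CPM. Against the neutrophil reference genes of EBA skin, the Cxcr2 observed was 22.8 times what free neutrophil RNA could bring in suprabasal and 13.9 times in wound-activated cells, but 0.380 times in fibroblast-like and 1.53 times in basal cells. Suprabasal cells were deep, at medians of 17666 UMIs in IgG and 28754 UMIs in EBA skin. Thinned to 500 UMIs, 0.220% of them kept a Cxcr2 UMI in IgG (12.6% before) and 1.64% in EBA skin (37.4% before). No change is read from these low thinned shares, and the ratio of the summed UMIs is given below.

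Ackr1 was highest per class in vascular endothelial-like cells, at 257 CPM in IgG skin (183 to 350.0) and 182 CPM in EBA skin (142 to 230.2). These values came from 40 UMIs in 8 of 31 cells and 70 UMIs in 10 of 37 cells, and 38 of the 70 were in 1 cell. Lymphatic endothelial-like cells had no UMI in either library, where 3 counts would be 7.64 CPM in IgG and 4.02 CPM in EBA skin. In EBA blood, Ackr1 had 11 UMIs in all.

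By number of transcripts, however, most Ackr1 UMIs lay in fibroblast-like cells, 86.3% in IgG skin (83.5 to 88.7, of 684) and 78.5% in EBA skin (75.5 to 81.3, of 805). Their level was 102 CPM in IgG (94.4 to 111, UMIs in 285 of 716 cells) and 41.3 CPM in EBA skin (38.2 to 44.7, 270 of 820 cells). The counts of cells are unthinned and rest on the differing depths given above. Vascular endothelial-like cells held 5.85% and 8.70%. The unnamed cluster 40, which mixed mural and endothelial markers, held 3.95% in 19 IgG cells and 8.94% in 15 EBA cells. The unnamed cluster 43 (1 IgG and 7 EBA cells) had Ackr1 among its leading genes, beside Fabp4, Selp and Plvap. Neither cluster is part of the vascular endothelial-like class or of its ratios. Ackr1 shares 493 bases with its neighbour Cadm3, a cell adhesion gene on the same strand (chr1:173333258-173367695), so reads from the shared stretch cannot be told apart. Cadm3 stood at 122 CPM in IgG and 54.5 CPM in EBA fibroblast-like cells, and 203 of the 285 IgG cells and 204 of the 270 EBA cells with Ackr1 also had Cadm3. In vascular endothelial-like cells Cadm3 had 3 UMIs in IgG and 15 in EBA skin, and 5 of 8 and 7 of 10 cells with Ackr1 had none. What part of the fibroblast Ackr1 counts comes from Cadm3 was not tested.

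Within classes, EBA skin was then set against IgG skin. In fibroblast-like cells, 3 of 5 measured genes were called higher and 1 lower, where 3.15% of 8319 genes were called higher and 3.32% lower. Cxcl5 was 7.82-fold higher (7.18 to 8.52), Cxcl2 2.87-fold (2.73 to 3.02, 293 to 841 CPM) and Cxcl3 23.6-fold (13.1 to 47.5, from the 11 IgG UMIs named above). Cxcl1 was not called, at 1.41-fold (1.36 to 1.45). Ackr1 was 0.403-fold (0.360 to 0.452), and Cadm3 0.446-fold (0.402 to 0.493). Markers of other cells also differed between these sums, from IgG to EBA skin: erythroid 51.1 and 1076 CPM (1 of 6 at 0 in each), macrophage 3660 and 877 CPM (2 and 0 of 9), basal keratinocyte 734 and 114 CPM (0 of 6 in each) and neutrophil 231 and 386 CPM (3 and 0 of 9). The 8 neutrophil reference genes, which leave out S100a8 and S100a9, went from 227 to 124 CPM. The part of other cells in the ratios was not tested. The calls were the same within each fibroblast cluster: Cxcl5 was 10.4-fold in cluster 5 and 5.35-fold in cluster 7, Cxcl2 2.76- and 2.41-fold, Ackr1 0.288- and 0.372-fold, and Cxcl1 1.56- and 1.08-fold, not called in either.

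**Figure D4:**
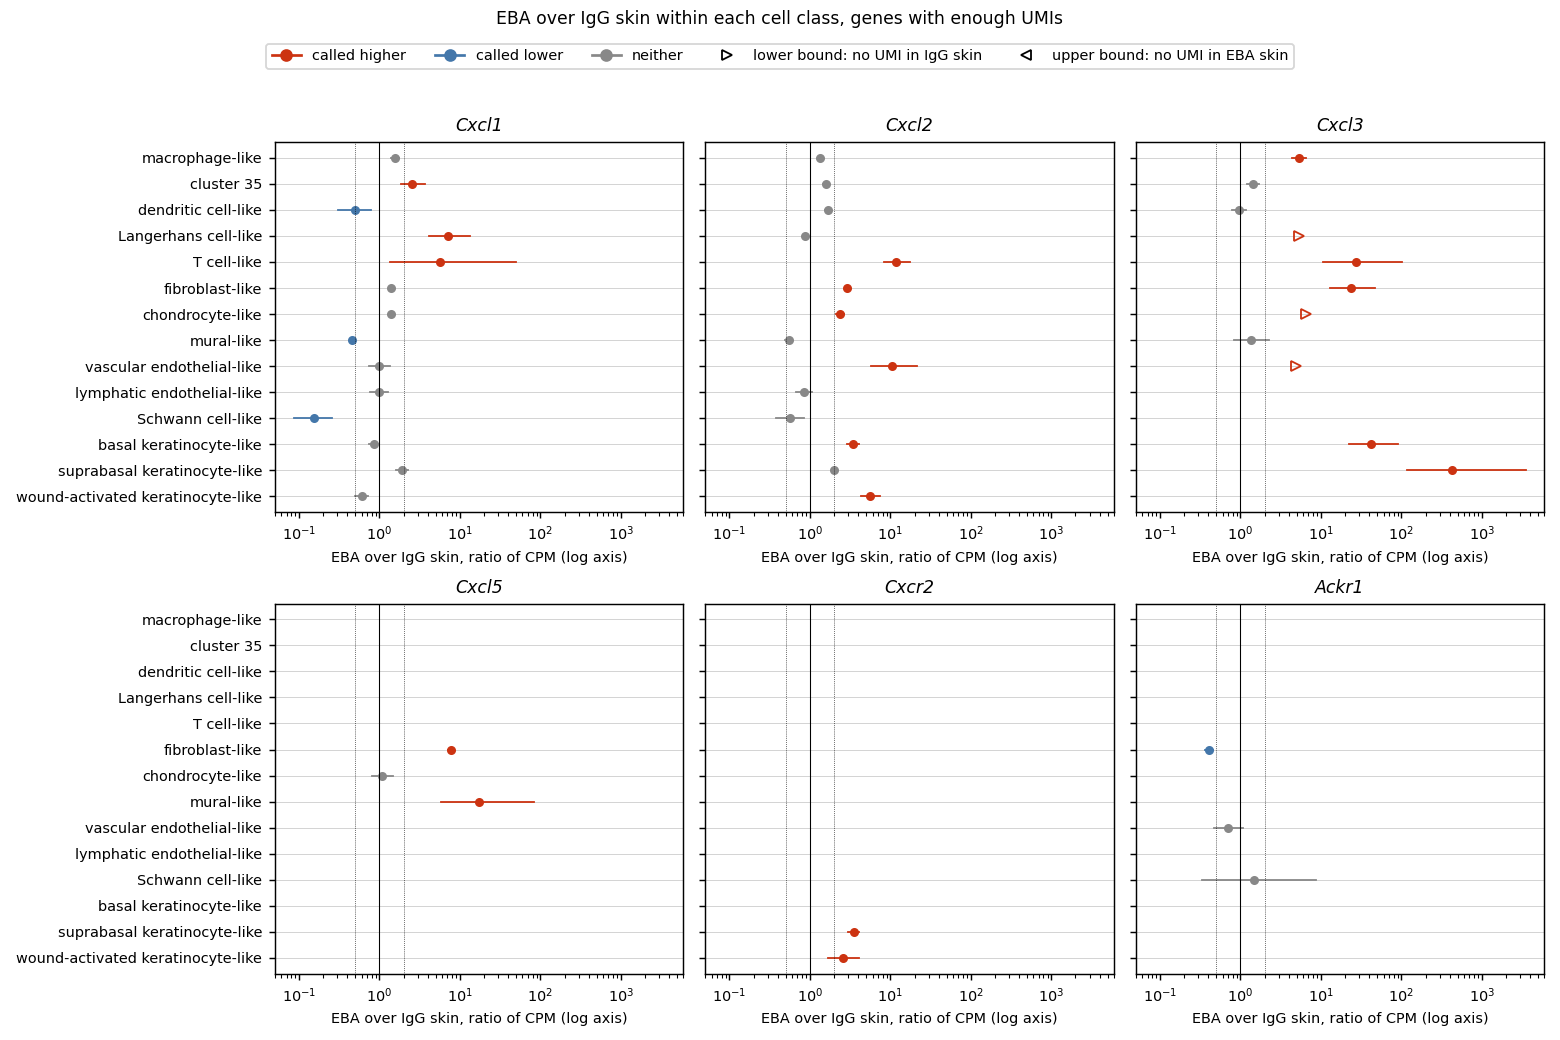
Ratio of EBA to IgG skin (log axis) for each gene in each class where it was measured, with exact 95% intervals for counting error; red marks genes called higher, blue called lower and grey neither, dotted lines stand at 0.5 and 2, and triangles are bounds against 3 counts. Cxcl2 is higher in fibroblast- and vascular endothelial-like cells and not called in macrophage- and Langerhans cell-like cells (1.33 and 0.875, the former 2.30 to 2.74 under 3 other settings), and Cxcl1 is lower in mural- and Schwann cell-like cells.

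In vessel-associated classes the directions differed by gene. Mural-like cells were called lower for Cxcl1 (0.451-fold, 0.428 to 0.476) and higher for Cxcl5 (17.2-fold, 5.80 to 84.1, from 3 IgG UMIs and mostly 1 EBA cell), where 9.73% of 6958 genes were called in either direction. Different clusters held most of these cells, cluster 42 with 17 of 25 in IgG and cluster 39 with 32 of 38 in EBA skin, and Cxcl1 was lower in EBA within both (9457 to 4170 CPM in cluster 42, 18877 to 6627 CPM in cluster 39). The Cxcl1 ratio was 1.09 when classes were assigned by marker UMIs without clustering, 0.506 with a mitochondrial limit of 20% and 0.514 with doublets kept, none of which is a call. Cxcl2 and Cxcl3 of mural-like cells were not called (0.544- and 1.35-fold), but Cxcl3 was called higher with doublets kept (2.02), with naming by marker UMIs (3.62) and without the cell with most UMIs (4.19). In vascular endothelial-like cells, 2 of 4 measured genes were called higher (4.75% of 6062 genes): Cxcl2 at 10.5-fold (5.76 to 21.2), with 204 of its 284 EBA UMIs in 1 cell, and Cxcl3 at least 4.87-fold, with 34 of 36 UMIs in 1 cell. Cxcl1 (0.993-fold) and Ackr1 (0.710-fold, 0.475 to 1.07) were not called, and the Ackr1 ratio ran from 0.557 (0.318 to 0.988), without the cell with most UMIs in each library, to 1.33 with a mitochondrial limit of 20%. Cluster 24, with 29 of the 37 EBA and 15 of the 31 IgG cells, held 263 and 260.5 CPM of Ackr1, and cluster 41 held 15.9 and 251 CPM. Erythroid markers summed to 15547.5 CPM in the EBA and 109 CPM in the IgG cells, and their part in these ratios was not tested. In lymphatic endothelial-like cells neither Cxcl1 (0.988-fold) nor Cxcl2 (0.846-fold) was called, against 8.83% of 8236 genes.

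Among resident myeloid classes, the Cxcl2 ratio depended on the processing. In macrophage-like cells it was 1.33 (1.28 to 1.38) and not called, but it was called higher with a mitochondrial limit of 5% (2.74), with doublets kept (2.38) and at a Leiden resolution of 2 (2.30). Their Cxcl1 ratio was 1.56, and 3.11, 2.09 and 2.38 under these settings. Cxcl2 was 1.68-fold in dendritic cell-like cells (3.43, called higher, with the 5% limit), 0.875-fold in Langerhans cell-like cells and 1.57-fold in cluster 35, and not called in these 3. Cxcl3 was called higher in macrophage-like cells (5.27-fold, 4.33 to 6.48, where 4.83% of 7694 genes were called higher). In the same sums the 9 neutrophil markers went from 52.9 to 590 CPM (2 of 9 and 0 of 9 at 0) and the 6 erythroid markers from 45.7 to 3867 CPM (3 of 6 and 0 of 6 at 0), and their part in the Cxcl3 ratio was not tested. In cluster 14, the only macrophage-like cluster with enough cells in both libraries, Cxcl3 was 1.32-fold (1.06 to 1.66) and not called.

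Cxcl1 went both ways in the other immune classes. It was called higher in cluster 35 (2.56-fold, 1.83 to 3.69, 3.52% of 6362 genes called higher), where 20 of 37 IgG UMIs were in 1 cell. It was also called higher in Langerhans cell-like cells (7.09-fold, 4.12 to 13.2, 8.21% of 6263 genes). There, 13 of 14 IgG UMIs and 126 of 197 EBA UMIs were in 1 cell each. Their ratio was 1.16 when classes were assigned by marker UMIs without clustering. Langerhans cell-like cells were also called higher for Cxcl3, at least 5.37-fold, with 22 of 32 UMIs in 1 cell; the ratio was 1.69 without that cell and 1.03 with doublets kept. Dendritic cell-like cells were called lower for Cxcl1 (0.491-fold, 0.305 to 0.785, 3.53% of 7197 genes), but 34 of 43 and 32 of 35 UMIs were in 1 cell each, and the ratio was 6.40 with a mitochondrial limit of 5% and not called with a limit of 20% (0.5003), at a Leiden resolution of 0.5 (0.602) or with naming by marker UMIs (0.530). In T cell-like cells, 3 of 3 measured genes were called higher (10.4% of 8102 genes): Cxcl2 at 11.9-fold (8.27 to 17.6), Cxcl3 at 27.5-fold (10.6 to 102) from 4 IgG UMIs, with 82 of 196 EBA UMIs in 1 cell, and Cxcl1 at 5.61-fold (1.36 to 49.5) from 2 IgG UMIs. The Cxcl1 call was lost with a mitochondrial limit of 5% (4.76, 0.692 to 205) and with naming by marker UMIs (3.75, 0.835 to 34.5). Cluster 21, led by Icos and Il2ra, held 136 of the 182 EBA and 51 of the 157 IgG cells, and its own Cxcl2 ratio was 5.28 (3.64 to 7.96). Cluster 26 held 42 EBA and 104 IgG cells, and its Cxcl2 ratio was 65.2 (17.5 to 547, from 2 IgG UMIs). Cxcl2 of T cell-like cells in EBA skin was 2.04 times what the neutrophil reference would bring as free RNA.

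In the other classes the ligands were mostly low. Chondrocyte-like cells were called higher for Cxcl2 (2.35-fold, 2.09 to 2.64; 1.72 with doublets kept and 1.85 with naming by marker UMIs) and Cxcl3 (at least 6.44-fold; 0.763 with doublets kept) and not for Cxcl1 (1.39-fold) or Cxcl5 (1.09-fold), where 3.54% of 8284 genes were called higher. The Cxcl5 ratio turned with the setting, from 5.44 with a mitochondrial limit of 5% and 6.24 without the cell with most UMIs in each library to 0.0997 with a limit of 20%, 0.0314 at a Leiden resolution of 2 and 0.0338 with naming by marker UMIs. Schwann cell-like cells were called lower for Cxcl1 (0.153-fold, 0.0861 to 0.259, 3.47% of 5219 genes), from 578 CPM in 42 cells to 88.4 CPM in 31, with 33 of the 74 IgG UMIs in 1 cell.

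In keratinocyte classes, Cxcr2 was called higher in suprabasal cells (3.49-fold, 2.97 to 4.10) and in wound-activated cells (2.56-fold, 1.68 to 4.10; 1.90 and 1.88 with mitochondrial limits of 5% and 20%). Within suprabasal clusters it was 4.67-fold in cluster 3 and 2.77-fold in cluster 11. These are ratios of summed UMIs at low levels, and the thinned shares of suprabasal cells given above were too low to read a change. Suprabasal cells were also called higher for Cxcl3, which had 2 UMIs in IgG skin (430.5-fold, 118 to 3577, with 130 of 222 EBA UMIs in 1 cell), where 4.1% of 6338 genes were called higher. Cxcl1 (1.90-fold) and Cxcl2 (1.999-fold) lay under the limit there, and above it relative to the median gene (2.10 and 2.21), with Cxcl2 at 1.15 when free RNA was subtracted and 2.39 with doublets kept. By suprabasal cluster, Cxcl1 was called higher in cluster 11 (3.52-fold) and not called in cluster 6 (0.658-fold). Of the 166 EBA Cxcl1 UMIs of cluster 11, 85 were in 1 cell, and its ratio without that cell was not computed. Cxcl2 was called higher in cluster 6 (5.18-fold) and not in clusters 3, 11 and 31 (1.23-, 1.91- and 0.805-fold). Of the 1468 Cxcl2 UMIs of EBA suprabasal cells, 575 were in 1 cell of cluster 11. The Cxcl1 ratio was not called in basal (0.855) or wound-activated cells (0.601). Among basal clusters it was called lower in cluster 2 (0.421) and not called in cluster 22 (0.989). Wound-activated cells were called higher for Cxcl2 (5.61-fold, 4.35 to 7.36, 2.49% of 6705 genes). Basal cells were called higher for Cxcl2 (3.43-fold, 2.90 to 4.05, and 1.77 at a Leiden resolution of 0.5), as were 8.26% of 7732 genes. Cluster 22, led by Ube2c and Mki67, held 9.68% of IgG and 37.1% of EBA basal cells. Basal cells were also called higher for Cxcl3 (42.4-fold, 22.1 to 91.2), from 10 IgG UMIs and with 43 of 99 EBA UMIs in 1 cell. Neutrophil markers stand beside these values: the 9 summed to 673 CPM in IgG and 5089.5 CPM in EBA wound-activated cells, with 5 of 9 and 0 of 9 at 0. These 9 include S100a8 and S100a9, which are not among the 8 neutrophil reference genes. The 8 summed to 5.45 CPM in IgG and 58.2 CPM in EBA wound-activated cells, the latter 0.297% of the level in neutrophil-like cells. The Cxcl2 and Cxcl3 of these EBA cells were 0.892 and 0.810 times what free neutrophil RNA would bring by the 8 genes. The part of neutrophil transcripts in the keratinocyte values of Cxcl2 and Cxcl3 was not tested.

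Neutrophil-like cells of EBA skin were next set against those of blood, which had not passed through digestion. The cells lay in different clusters, 877 of the 879 skin cells in cluster 4 and the EBA blood cells mostly in clusters 9 (486) and 19 (321). Against EBA blood, Cxcl2 stood at 31949.7 and 23.7 CPM, 1349-fold (1184 to 1544), and Cxcl3 had 11088 UMIs in skin and 1 in blood, a ratio of 31177 (5595 to 1231541). Cxcl1, with no UMI in blood, was at least 153-fold higher. Cxcr2 went the other way, from 765 CPM in blood (747 to 783) to 353 CPM in skin, 0.461-fold (0.434 to 0.490). Thus 3 of 4 measured genes were called higher and 1 lower, where 32.9% and 22.1% of 5392 genes were. The Cxcr2 ratio was 0.386 relative to the median gene, 0.666 with a mitochondrial limit of 20% and 0.501 with classes assigned by marker UMIs without clustering, and it was not called under the latter pair. Against IgG blood, where 61.0% of 6334 genes were called, Cxcl2 was 979-fold (719 to 1371), Cxcl3 at least 1336-fold, Cxcl1 at least 19.6-fold and Cxcr2 0.191-fold (0.178 to 0.205). Both skin comparisons share the skin library.

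Within blood, Cxcr2 was highest in neutrophil-like cells of both libraries, and Cxcl5 in platelet-like cells (110 CPM in EBA blood). Neutrophil-like cells held 1843 CPM in IgG (1768 to 1921, 455 cells) and 765 CPM in EBA blood (814 cells), 0.415-fold. This is the direction of the median gene of this comparison (log2 ratio −1.08, and 53.9% of 6019 genes were called lower), and relative to that median the ratio was 0.878 and not called, as it was not with the 50 highest genes left out of the totals (0.715). Cxcl2 was 32.6 and 23.7 CPM (0.726-fold, not called; 0.361, called lower, with a mitochondrial limit of 20%). The cells also differed in kind: cluster 16 held 402 of the 455 IgG cells at 1897 CPM. The EBA cells were cluster 9 (486 cells, 1034 CPM) and cluster 19 (321 cells, 440.0 CPM), the latter led by Camp, Ngp and Ltf, granule protein genes of immature neutrophils. Cluster 9 of IgG blood held 1492 CPM in 53 cells. Thinned to 500 UMIs, a Cxcr2 UMI was kept by 61.8% of neutrophil-like cells in IgG blood, 34.8% in EBA blood and 17.3% in EBA skin, at median depths of 2410.0, 9958 and 3023 UMIs.

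Monocyte-like cells of blood held 85.8 CPM of Cxcr2 in IgG and 494 CPM in EBA, 5.76-fold (4.96 to 6.72), and Cxcl2 was 4.96-fold higher there (2.06 to 15.6), where 6.71% of 7526 genes were called higher. The neutrophil reference genes moved with it: they summed to 808 CPM, 5.28% of the neutrophil-like level, in IgG and to 12832 CPM, 53.5%, in EBA monocyte-like cells. All 4395 EBA UMIs lay in cluster 12, and cluster 25, led by Ace and Ear2, had none in 43 cells. The part of neutrophil transcripts in this difference was not tested. The monocyte-like cells of EBA skin and EBA blood lay in different clusters, cluster 34 with 124 of 126 in skin and clusters 12 and 25 with 296 and 43 in blood. Between them, the class was called for 4 of 4 measured genes (44.3% of 7341 genes in either direction). Cxcl2 was 2111-fold, Cxcl3 2303-fold and Cxcl1 4418-fold higher and Cxcr2 0.00563-fold (0.00116 to 0.0165). These ratios rest on blood levels of 11.7 CPM for Cxcl2, 1.57 CPM for Cxcl3 (14 UMIs, 8 in 1 cell) and 0.450 CPM for Cxcl1. Cxcr2 stood at 2.78 CPM in skin, and its blood level was 1.21 times what the neutrophil reference would bring as free RNA. The part of neutrophil transcripts in the Cxcr2 ratio was not tested. Over all blood cells, Cxcr2 was 3.21-fold and Cxcl2 4.97-fold higher in EBA, where 7.07% of 7976 genes were called higher; neutrophil-like cells were more numerous there.

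The wider pathway was followed in 7 lists, 74 of whose 77 genes were matched. Of genes that induce these chemokines and their receptors, Il1b and Tnf were highest in monocyte-like cells of EBA skin (7816 and 1186 CPM), Il6 in mural-like cells of IgG skin (6068 CPM, 2885 CPM in EBA) and the TNF receptor Tnfrsf1b in neutrophil-like cells of EBA skin (1063 CPM). In those neutrophil-like cells, 5 of 7 measured genes of this list were called higher than in EBA blood (Il1a, Il1b, Tnf, Il1rap and Tnfrsf1b), with a median log2 ratio of 3.47 against 0.26 for all genes, of which 32.9% were called higher and 22.1% lower. Il1b was 11.1-fold and Tnf 74.5-fold higher. In fibroblast-like cells, EBA against IgG skin, 1 of 8 was called higher (Il1b), with a median of 0.45 against −0.01 for all genes. Of all 8319 genes measured there, 3.15% were called higher.

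Genes of chemokine mRNA decay and NF-kB feedback were higher in skin than in blood neutrophil-like cells for 7 of 10 measured, against 32.9% of all genes, with a median log2 ratio of 3.41. Nfkbia, the inhibitor that NF-kB induces, was 19.0-fold higher, at 2884 CPM, Nfkbiz 13.3-fold, and the AU-rich element binding genes Zfp36 and Zfp36l1 2.87- and 8.50-fold. In fibroblast-like cells 0 of 11 were called between EBA and IgG skin, against 6.47% of 8319 genes, with a median of −0.27.

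Of genes that carry or end the CXCR2 signal, 9 of 13 measured were lower in skin than in EBA blood neutrophil-like cells and 1 was higher, against 22.1% and 32.9% of all genes, with a median log2 ratio of −1.37. The G protein subunit gene Gnai2 was 0.483-fold and Rgs2, a regulator that shortens G protein signals, 0.280-fold, while the subunit gene Gnb1 was 2.50-fold higher and Gnai3 was not called (1.33-fold). In fibroblast-like cells, EBA against IgG skin, 0 of 9 were called, against 6.47% of 8319 genes, with a median of −0.12.

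Other neutrophil attractant receptors and enzymes went both ways in the same cells: 5 of 10 were called higher and 3 lower, against 32.9% and 22.1% of all genes, with a median log2 ratio of 0.40 against 0.26 (relative to the median gene, 4 and 4). The formyl peptide receptor Fpr1 was 4.91-fold higher, the platelet-activating factor receptor Ptafr 15.0-fold and Ccr1 2.88-fold, while Alox5ap, needed for leukotriene synthesis, was not called (0.541-fold). Ltb4r1, Alox5 and Lta4h, genes of leukotriene B4 sensing and synthesis, were called lower. In fibroblast-like cells 1 gene of this list was measured and it was not called.

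Among other CXC and atypical receptors, 2 of 3 were higher in skin than in blood neutrophil-like cells, Cxcr4 at 4.31-fold and Ccrl2 at 1723-fold (0.629 to 1084 CPM), against 32.9% of all genes, with a median log2 ratio of 2.11. Cxcr6 was highest in T cell-like cells of EBA skin (604 CPM) and Ackr3 in lymphatic endothelial-like cells of IgG skin (288 CPM). In fibroblast-like cells 1 of 3 was called lower in EBA skin (Ackr4), where 3.32% of 8319 genes were.

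Among other CXC ligands, Cxcl12, the ligand of CXCR4, was 3.07-fold higher in EBA than in IgG fibroblast-like cells (411 to 1262 CPM) and Cxcl10 2.66-fold. These were 2 of 4 measured (median log2 ratio 0.80), where 3.15% of 8319 genes were called higher. Pf4 was highest in macrophage-like cells (5119.8 CPM in IgG and 3059.6 CPM in EBA skin) and Cxcl16 in Langerhans cell-like cells (1494 and 1353 CPM). In neutrophil-like cells, skin against EBA blood, 2 were higher (Cxcl10 and Cxcl16) and 2 lower (Ppbp and Pf4, platelet genes) of 4 measured, against 32.9% and 22.1% of all genes, and the median was −1.22.

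Of endothelial genes that act beside ACKR1 in recruitment, 7 were measured in vascular endothelial-like cells: 1 was called higher in EBA skin (Nr2f2) and 2 lower (Icam1 and Vcam1), where 4.75% and 4.65% of all genes were, with a median log2 ratio of −0.36 against 0.06 for all genes. The adhesion gene Icam1 stood at 2246 and 950.1 CPM, 0.423-fold. Selp, which encodes the selectin that slows neutrophils, Plvap and Vwf were not called (0.734-, 1.79- and 1.57-fold). In fibroblast-like cells Icam1 was called lower (0.483-fold), 1 of 4 measured (median −0.72), where 3.32% of 8319 genes were called lower.

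Across 34 points, the 19 EBA and 15 IgG skin classes, genes with the most similar pattern were ranked by Pearson's r of log2(CPM + 1), among 8002 genes, as a description of points that share libraries and depth. Cxcl2 and Cxcl3 resembled each other (r = 0.79) more than Cxcl1 and Cxcl5 did (0.58). Among the closest genes were Nrp2 (0.80), Mmp14, Ano6, Tcf4 and Rras for Cxcl1, and Ctsz (0.87), Cyba, Rilpl2 and Slc15a3 for Cxcl2. For Cxcl3 they were Clec4e (0.88), Slc16a3, Slc11a1, Ccl4 and Ccl3, and for Cxcl5 Dpt (0.89), Twist2, Epha3, Prrx1 and Gm26523. Cxcr2 was nearest to 9830107B12Rik (0.78), Rab44, Fpr1, Asprv1 and Ngp, the fourth of which was highest in suprabasal keratinocyte-like cells (4895 CPM) and the others in neutrophil-like cells. Ackr1 was nearest to Col15a1 (0.88), to its overlapping neighbour Cadm3 (0.88), and to Tmem47, Jam2 and Clec14a.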

How the data were processed

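Whole blood and ear skin of mice given EBA or control IgG were measured, 1 pooled library per group and tissue, with no replicates. The deposited matrices hold raw UMI counts per gene and barcode. The authors used Cell Ranger 3.0.0, Seurat 3.0.0 and 3.1.0 and mm10, per the submitters' processing notes; how barcodes had been selected before deposit is not given in the sources used here.

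Barcodes with fewer than 200 genes (297 to 1489 per library) or over 10% mitochondrial UMIs (140 to 1139) were left out, as were the highest doublet scores of Scrublet as run in scanpy, 0.8% per 1000 barcodes (94 to 228). The rest were clustered with scanpy 1.11.5 and leidenalg 0.10.2 (2000 variable genes without the listed, mitochondrial and ribosomal genes, 30 components, 15 neighbours, resolution 1, seed 0). Mixed clusters were split once at resolution 0.5, giving 47 clusters from 34. Of these, 43 were named from 165 markers of 25 cell types and 4 stayed unnamed. The naming details and the splitting were chosen after seeing the data, and differences from the study may come from these rebuilt names.

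Counts were summed per library and class of 20 or more cells. Ratios carry exact conditional binomial intervals (95%), levels exact Poisson and shares Clopper-Pearson intervals, and a sum of 0 was set at 3 counts per sum. Shares of cells were also given after thinning each cell to 500 UMIs. Intervals cover counting error only. The call rule was tested on simulated data with a larger and a smaller change. These data held counting error only, with no spread between cells, mice or libraries. In fibroblast-like cells, EBA against IgG skin, it recovered 100% of the larger and 99% of the smaller changes. For neutrophil-like cells of EBA skin against EBA blood these shares were 98% and 99%. In mural-like cells, EBA against IgG skin, they were only 63% and 54%. The rule called 1.90% of unchanged genes in mural-like cells and 0.0213% in that neutrophil-like comparison. By counting error alone, calls in mural-like cells are thus less certain. The simulation cannot show how the calls of any class stand against the other kinds of spread. Python 3.11.15, numpy 2.4.6, scipy 1.17.1, pandas 2.3.3, scikit-learn 1.9.0 and matplotlib 3.10.9 were used.

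The 6 genes were named throughout, with the 4 genes of highest CPM in any skin class from each wider list and the 5 genes of highest Pearson correlation with each of the 6; some genes that this rule or a cluster's leading genes would name are not reported here. Other genes named as list members that were called were chosen after their values were seen. The 6 genes and the lists were chosen with earlier results of these data known. Alternatives were other mitochondrial limits, doublets kept, other resolutions, naming by marker UMIs, free RNA subtraction, other scalings and CPM minimums.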

Additional observations from a re-analysis of the deposited data

Results flagged for a closer look

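Cxcl1 was called in opposite directions between EBA and IgG skin in different classes. Its ratio was 7.09 in Langerhans cell-like cells, 5.61 in T cell-like cells and 2.56 in cluster 35. It was 0.491 in dendritic cell-like cells, 0.451 in mural-like cells and 0.153 in Schwann cell-like cells. The difference between these classes was not tested, and in Langerhans and dendritic cell-like cells most UMIs came from 1 cell in each library. In cluster 35, not compared across settings, 20 of 37 IgG UMIs were in 1 cell. With naming by marker UMIs no call was made in Langerhans cell-like (1.16), T cell-like (3.75), dendritic cell-like (0.530) or mural-like cells (1.09). With a mitochondrial limit of 5% the dendritic cell-like ratio was 6.40. The Schwann cell-like call was the same in 10 of 10 settings.

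The barcodes left out also held transcripts of the 6 genes in EBA skin, above their level in IgG skin. Among barcodes with fewer than 200 genes (1135 in EBA and 297 in IgG skin), Cxcl2 stood at 66.8 CPM, against 15.96 CPM in IgG skin. Among those with a high mitochondrial share (884 and 1139 barcodes), Cxcl2 stood at 833 CPM against 72.5 CPM and Cxcl1 at 175 CPM against 102 CPM. Cxcl3 stood at 83.5 CPM against 2.21 CPM and Cxcl5 at 86.6 CPM against 10.5 CPM. Cxcr2 stood at 11.8 CPM against 5.64 CPM, and Ackr1 at 13.6 CPM against 6.62 CPM. The 8 neutrophil reference genes summed to 372 CPM in the high mitochondrial barcodes of EBA skin and 74.7 CPM in those of IgG skin. Their part in these values was not tested.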

How the results depend on the processing

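No paired analysis was possible because each group is 1 pooled library, so every group has replicate 1 only. Of the called ratios that could be recomputed, the call was the same for 27 of 30 with a mitochondrial limit of 5%, 28 of 32 with 20%, 30 of 34 with doublets kept, 31 of 33 and 34 of 34 at resolutions 0.5 and 2, 29 of 35 with naming by marker UMIs, 34 of 34 with free RNA subtracted, and 34 of 35 under either other scaling. Alternatives added after seeing the data gave 35 of 35 (without barcodes found in more than 1 library) and 30 of 31 (without the cell with most UMIs). Uncalled ratios that became called without a change of direction numbered 5 with the 5% limit, 3 with 20% and 5 with doublets kept. They numbered 4 and 3 at resolutions 0.5 and 2, 4 with marker naming and 1 with free RNA subtracted. There were 4 relative to the median gene, 3 without the 50 highest genes and 2 without the cell with most UMIs. Ratios that became called with a change of direction are not in these numbers and are among those given at the end. Unnamed clusters were not compared across settings.

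Neutrophil-like Cxcl2 in EBA skin (31949.7 CPM, 57.4% of UMIs) was 32172 CPM and 59.6% with the 5% limit, 31587 CPM and 55.9% with doublets kept, 31649.7 CPM and 55.6% with marker naming, 32264 CPM and 58.8% with free RNA subtracted, and 56.9% with the 20% limit. The fibroblast-like share of Cxcl1 (52.2%) was 58.6% with the 5% limit and 54.7% with free RNA subtracted. That of Cxcl5 (96.6%) was 97.2% and 97.5% with the 5% and 20% limits, 96.02% with doublets kept, 97.1% and 97.6% at resolutions 0.5 and 2, and 97.25% with free RNA subtracted. Cxcr2 in skin against EBA blood neutrophil-like cells (0.461) was 0.666 with the 20% limit and 0.501 with marker naming.

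Genes called with no CPM minimum and with 50 CPM were 1411 and 202 in fibroblast-like cells (538 at 10 CPM), 1480 and 129 in suprabasal cells (341), and 4669 and 1402 in skin against blood neutrophil-like cells (2961). With 50 CPM they were 218 in macrophage-like cells (763) and 1502 in blood neutrophil-like cells (3512).

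Some ratios changed direction, and the cause was not tested. With the 5% limit Cxcl1 was 6.40 in dendritic cell-like and 3.02 in wound-activated cells. With the 20% limit Cxcl5 was 0.0997 in chondrocyte-like and Cxcl3 11.2 in dendritic cell-like cells. With doublets kept Cxcl2 was 4.07 in Schwann cell-like and Cxcl3 0.763 in chondrocyte-like cells. At resolution 2 Cxcl5 was 0.0314 in chondrocyte-like cells. With marker naming it was 0.0338 there, Cxcl1 and Cxcl2 were 4.27 and 31.1 in lymphatic endothelial-like cells, and Cxcl1 was 1.09 in mural-like cells.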
